A study of Homo sapiens with 21 samples.

Results

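RNA of 786-O cells infected with sg4, a guide RNA against JMJD6, was compared with RNA of cells infected with a control guide. The members are the 3 RNA libraries labelled sg4 and the 3 labelled as wild type for JMJD6 with the control guide (sgCtrl), chosen by their titles, 6 of the 21 samples of the series. The other samples are 3 RNA libraries of a further JMJD6 guide, sg2, which is used here only as a check, and 12 chromatin samples, which were not analysed here. 786-O is an established human cell line from a clear cell renal carcinoma. The labels give the genotype of the sg4 libraries as JMJD6 KO and that of the controls as JMJD6 WT, with no further treatment or allele. All cells grew in DMEM with 10% fetal bovine serum. The treatment text speaks of siRNA transfection and the sample titles of guides, so the samples were taken as guide knockouts. Nothing in the labels says whether the sg4 cells are a clone or a mixed pool, which Cas9 system was used, or how long after infection the RNA was taken. The RNA samples are called triplicates, and nothing says whether each came from its own culture. The p-values therefore measure only how far these libraries vary, which may be technical. The question of the comparison is which transcripts differ once JMJD6 is targeted with this guide.

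JMJD6 is an oxygenase of the Jumonji family that uses iron, oxygen and 2-oxoglutarate. It hydroxylates lysines, among others on the splicing factor U2AF2, and it works in the nucleus on transcription and, with RNA-binding proteins, on splicing. Clear cell renal carcinoma arises from the proximal tubule, usually loses the VHL gene, keeps its hypoxia-inducible factors active in the presence of oxygen and stores lipid droplets. The series title links JMJD6 to DGAT1, which makes triglycerides for these droplets.

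Each library held between 14224263 and 16172033 estimated counts over RefSeq transcripts, and from 15815 to 16170 genes had a count. Markers of renal carcinoma were present, since 12 of 12 could be tested and VIM stood near 5219.7 CPM (counts scaled to library size) in the controls. Of 17 markers of leukocytes and endothelium 2 could be tested, and 0 were called. CD68 had 773, 817 and 932 counts in the controls and 788, 668 and 805 with sg4. CSF1R had 32, 37 and 30 counts in the controls and 62, 58 and 49 with sg4. CD3E, CD3D, MS4A1 and CDH5 had 0 counts in each of the 6 libraries. Some of 12 fibroblast and pericyte markers stood out in control 1. There COL1A2 had 298 counts, DCN 154 and COL3A1 88, against at most 22, 7 and 5 in controls 2 and 3. In sg4 library 3 these 3 genes had 45, 24 and 19 counts, and in sg4 libraries 1 and 2 at most 3 counts each. Other markers did not stand out: PDGFRB had 13, 15 and 15 counts in the controls, RGS5 155, 139 and 116, and FAP 0 in each library. Secreted airway proteins had few counts that were higher with sg4. SCGB1A1 had 4, 4 and 24 counts in the controls and 98, 87 and 30 with sg4, BPIFB1 1, 8 and 17 against 69, 78 and 33, and BPIFA1 2, 14 and 10 against 18, 63 and 47. Where these airway counts come from was not tested, and they are not read as expression by the cells. Short and long transcripts differed between libraries within a group. The median log2 level of the shortest decile of genes by effective length minus that of the longest decile, relative to the mean library, was −0.04, −0.02 and −0.21 in controls 1, 2 and 3 and −0.05, 0.10 and 0.21 in sg4 libraries 1, 2 and 3. Control 3 and sg4 libraries 2 and 3 thus stand apart from the other libraries, in opposite directions. Calls of many named genes and counts of many gene lists below are also given with libraries left out. A list count given without this may change as well.

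JMJD6 itself was lower in each sg4 library than in every control. It measured 41.4, 40.9 and 44.4 CPM in the controls and 11.7, 14.5 and 10.8 CPM with sg4. The sg4 values lie close together and far from the controls, and the log2 fold change was −1.78 ± 0.11 (SE) with a Benjamini-Hochberg adjusted p of 8.26e-10 by the quasi-likelihood test of edgeR, a 3.43-fold decrease that was called whichever library was left out. Both RefSeq coding transcripts of the gene in the files fell alike: NM_001081461 went from 325, 318 and 317 estimated counts to 104, 119 and 91, and NM_015167 from 291, 310 and 308 to 82, 99 and 72. The counts do not show the edit, and RNA that remains may or may not encode protein. METTL23, which lies beside JMJD6 on chromosome 17, had 529, 605 and 458 counts in the controls and 537, 537 and 574 with sg4, so its groups overlapped. Of 13 tested neighbours of JMJD6 only SEPTIN9, a cytoskeletal septin, was called. It measured 569, 590.1 and 576 CPM in the controls and 477, 518 and 511 CPM with sg4 (−0.20 on the log2 scale) and lost its call without control 2 (adjusted p = 0.0699, edgeR). DGAT1, which joins the third fatty acid to diacylglycerol to make triglyceride, measured 37.9, 39.2 and 40.7 CPM in the controls and 25.98, 31.7 and 31.6 CPM with sg4. The groups did not overlap, and DGAT1 fell by 0.40 on the log2 scale, with an SE of 0.092 and an adjusted p of 0.00936 by edgeR, a call that held in each of the 6 fits with a library left out. Per transcript length, on the deposited TPM scale, JMJD6 went from 34.03 ± 2.39 TPM in the controls to 8.90 ± 1.45 TPM with sg4 and DGAT1 from 22.04 ± 1.16 TPM in the controls to 15.7 ± 1.31 TPM with sg4 (SD, n = 3 each).

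Across the transcriptome 1083 of 13351 tested genes passed an adjusted p of 0.05, the threshold of a call here, 8.11% of them. Of these, 627 were higher with sg4 (4.7%) and 456 lower (3.42%). The changes were mostly small. A called gene had a median log2 change in size of 0.31, 97 genes reached a fold of 1.5, and 23 reached a fold of 2. Of those 23, SHISA2, IGFL2-AS1 and JMJD6 had a mean of at least 4 CPM, and the other 20 were low. The median over all tested genes was −0.0031. All sg4 libraries lay above all controls for 1855 genes (13.9%) and below them for 1703 (12.8%). Calls were more frequent among abundant genes: in the fifth of genes with the highest level 325 were higher and 154 lower, and in the fifth with the lowest level 11 and 25. Single libraries weighed on these totals. Without control 1 the test called 528 genes, without control 3 602, without sg4 library 2 720 and without sg4 library 3 484. A core of 304 genes, 185 higher and 119 lower, was called in all 6 fits with a library left out. With sg4 library 1 set against controls 1 and 2, which leaves out the 3 libraries with a length trend, 358 genes were called, and 244 of the 1083 were called there with the same sign.

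**Figure D1:**
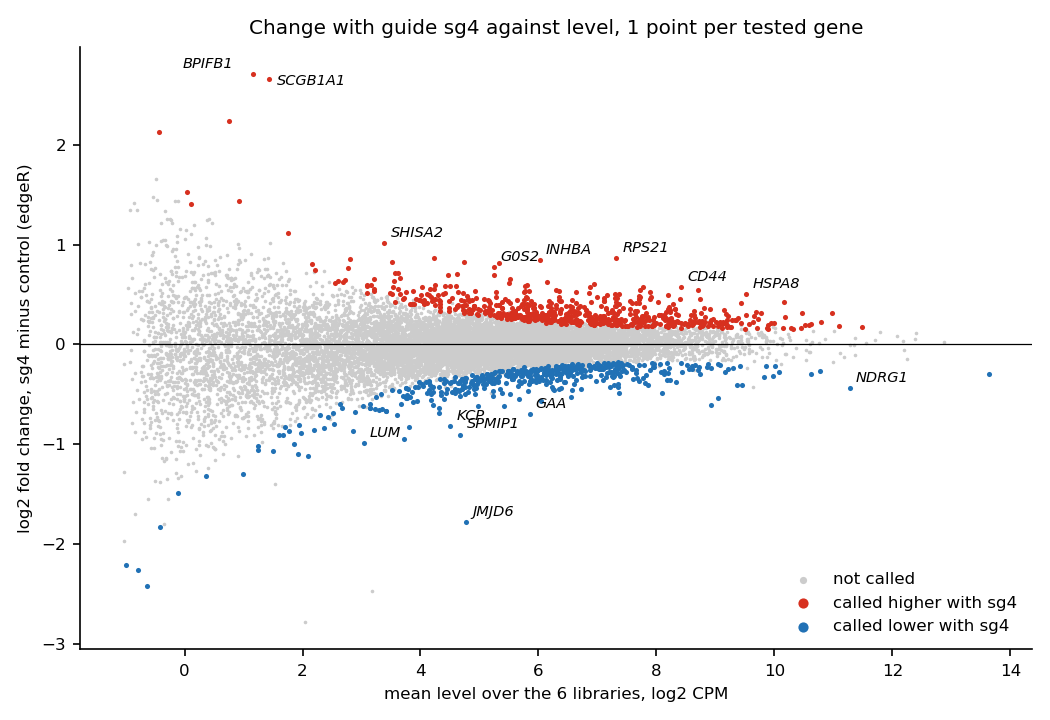
Log2 fold change of sg4 against control (vertical axis) by mean level over the 6 libraries in log2 CPM (horizontal axis), 1 point per tested gene. Red and blue points are the 627 higher and 456 lower calls, most of them within a fold of 1.5, and JMJD6 lies far below the other genes of its level at −1.78.

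Among the largest increases with sg4 were secreted growth factors. INHBA, a subunit of activin A, measured 46.00, 43.6 and 49.6 CPM in the controls and 83.8, 93.8 and 72.9 CPM with sg4. Each sg4 library was above every control by a wide margin, and the log2 fold change was 0.85 ± 0.085 (SE, adjusted p = 4.69e-06, edgeR). Its relative INHBB, a subunit of activin B, had lower levels, 9.01, 9.44 and 8.31 CPM in the controls and 12.3, 14.3 and 17.6 CPM with sg4, and rose by 0.72 (adjusted p = 0.00403, edgeR). HBEGF, a ligand of the EGF receptor, measured 7.80, 9.57 and 7.32 CPM in the controls and 13.02, 15.5 and 15.5 CPM with sg4, and its groups did not overlap (log2 fold change 0.83 ± 0.15, adjusted p = 0.00103, edgeR). SHISA2, which holds back Wnt and FGF receptors, led the list with 7.33, 7.42 and 6.04 CPM in the controls and 14.03, 11.9 and 16.1 CPM with sg4 and a log2 fold change of 1.01 ± 0.15. CRISPLD2, a secreted protein, went from 4.94 ± 1.13 to 8.995 ± 0.650 CPM (SD, n = 3 each). G0S2, an inhibitor of the triglyceride lipase ATGL, measured 30.8, 27.9 and 25.7 CPM in the controls and 44.3, 43.2 and 57.1 CPM with sg4, so sg4 library 3 was highest and libraries 1 and 2 lay close together. LIPG, the endothelial lipase, rose from 9.26 ± 0.385 to 15.2 ± 2.34 CPM, and TMEM158, a membrane protein, from 28.96 ± 4.91 to 46.8 ± 10.3 CPM (SD, n = 3 each). These 8 genes were called whichever library was left out.

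Other large increases belonged to short transcripts. RPS21, a protein of the small ribosomal subunit, measured 126, 124 and 90.5 CPM in the controls and 186, 213 and 222 CPM with sg4. Control 3 was lowest and sg4 library 3 highest, the order of the length trend, and the log2 fold change of 0.87 was 0.54 after correction for that trend and 0.57 in sg4 library 1 against controls 1 and 2. RPS29, also of the small subunit, went from 0.83 to 0.45 with the correction, TMEM258, a subunit of the oligosaccharyltransferase of N-glycosylation, from 0.87 to 0.56, UBL5, a ubiquitin-like protein of the spliceosome, from 0.81 to 0.55, and NDUFA2, a subunit of respiratory complex I, from 0.71 to 0.57. These 5 genes were still called after the correction and in all 6 fits with a library left out. The other 2 of the 15 largest increases were less firm. MMP1, the interstitial collagenase, measured 2.96, 2.99 and 3.77 CPM in the controls and 5.91, 4.51 and 6.60 CPM with sg4 and lost its call without control 1 or 2 or sg4 library 1 or 3 (adjusted p from 0.0661 to 0.145, edgeR). SLC43A2, an amino acid transporter, measured 2.76, 4.17 and 3.48 CPM in the controls and 5.35, 5.71 and 6.41 CPM with sg4 and lost its call without control 1 or 3 or sg4 library 2 or 3 (adjusted p from 0.0782 to 0.165, edgeR).

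After JMJD6, decreases with sg4 included genes of the cell surface and the matrix. LAMA5, a laminin chain of basement membranes, measured 16.3, 14.1 and 14.99 CPM in the controls and 9.69, 9.02 and 9.11 CPM with sg4. The 3 sg4 values are nearly equal and below every control, and the log2 fold change was −0.71 ± 0.13 (SE, adjusted p = 0.00176, edgeR). ITGB4, an integrin that binds laminin, fell by 0.84, from 6.60 ± 0.633 to 3.69 ± 0.841 CPM (SD, n = 3 each), but lost its call without control 1 or sg4 library 3 (adjusted p from 0.0722 to 0.0886, edgeR). KCP, a secreted modulator of BMP signalling, measured 29.3, 25.9 and 31.8 CPM in the controls and 17.9, 16.8 and 14.4 CPM with sg4 and fell by 0.82 with an SE of 0.11. NPR1, the receptor of atrial natriuretic peptide, measured 5.85, 6.77 and 5.61 CPM in the controls and 3.02, 3.91 and 4.23 CPM with sg4 and lost its call when any 1 of the 6 libraries was left out (adjusted p from 0.0576 to 0.133, edgeR). LUM, a proteoglycan of the matrix, measured 17.6, 7.81 and 7.32 CPM in the controls and 5.47, 4.58 and 6.41 CPM with sg4. Control 1, the library with counts of COL1A2 and DCN, was highest, LUM lost its call without control 1 or sg4 library 2 (adjusted p from 0.0955 to 0.240, edgeR), and its log2 fold change without control 1 was −0.46. The part of fibroblast RNA in that value was not tested.

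GAA, the lysosomal glucosidase that breaks down glycogen, measured 77.1, 66.2 and 70.8 CPM in the controls and 40.5, 44.4 and 46.8 CPM with sg4, and its log2 fold change was −0.70 ± 0.079 (SE, adjusted p = 1.39e-05, edgeR). PRPF40B, a homologue of the yeast splicing factor Prp40, measured 17.7, 16.5 and 19.8 CPM in the controls and 10.4, 9.88 and 10.1 CPM with sg4. Its sg4 values differ by less than 1 CPM among themselves, and it fell by 0.83 with an SE of 0.13. CCDC183 and SPMIP1, the latter named as a protein of sperm microtubules, fell by 0.95 and 0.91. For CCDC183 the values were 17.8, 15.03 and 19.3 CPM in the controls and 5.85, 11.4 and 9.71 CPM with sg4, with sg4 library 1 lowest. For SPMIP1 they were 36.9, 24.9 and 38.4 CPM in the controls and 13.5, 21.1 and 18.9 CPM with sg4, and control 2 lay nearer to the sg4 libraries than the other controls did. RABL2A, a small GTPase linked to cilia whose reads can be split with a near-identical copy, fell from 9.37 ± 1.75 to 5.14 ± 0.254 CPM (SD, n = 3 each). GAA, PRPF40B, KCP, LAMA5, CCDC183, SPMIP1 and RABL2A were called in all 6 fits with a library left out.

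**Figure D2:**
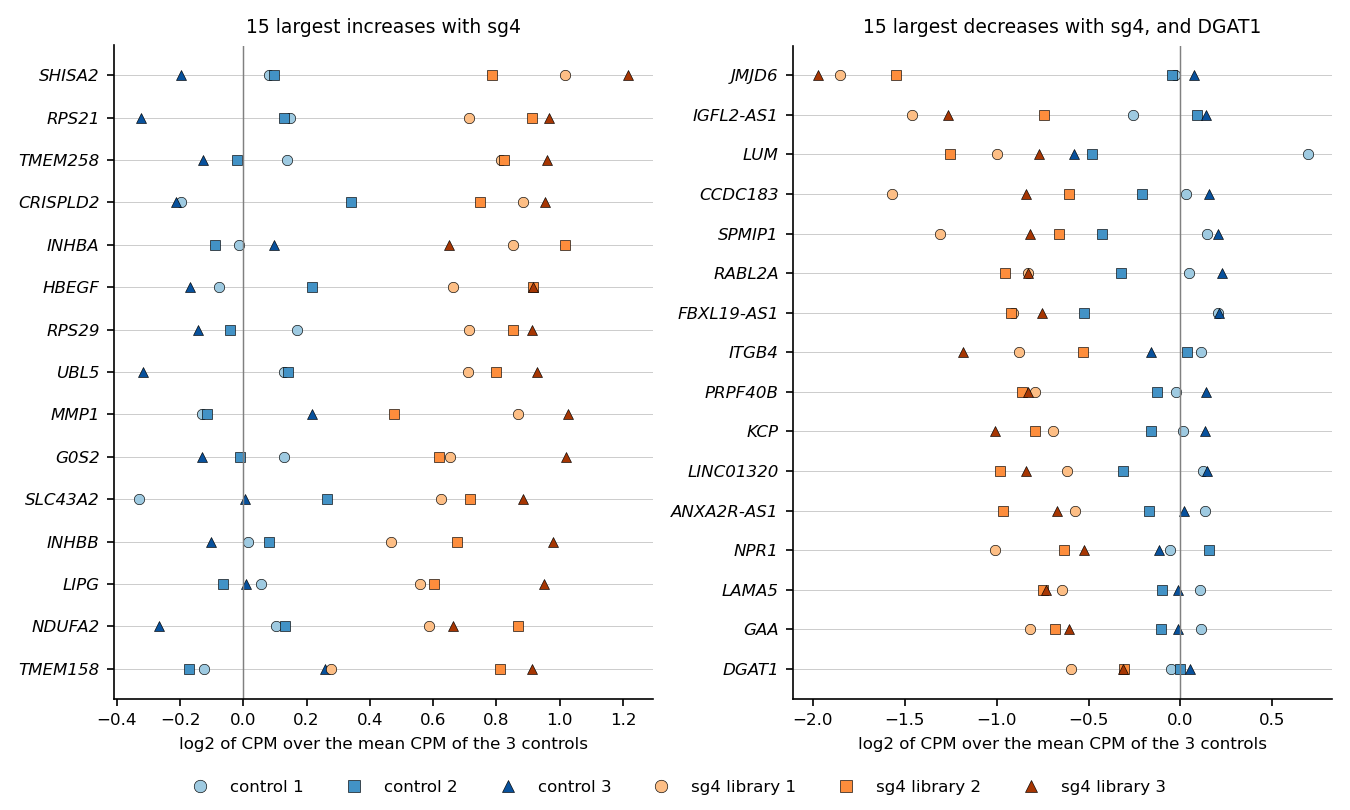
Level of each library as log2 of its CPM over the mean CPM of the 3 controls (horizontal axis), for the 15 largest increases (left) and the 15 largest decreases and DGAT1 (right) with a mean of at least 4 CPM. Blue symbols are the 3 controls and orange symbols the 3 sg4 libraries, which do not overlap within a row. LUM is spread out by control 1, and JMJD6 sits near or below −1.5 in all 3 sg4 libraries.

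Long noncoding genes were 4 of the 15 largest decreases. IGFL2-AS1 measured 4.91, 6.25 and 6.47 CPM in the controls and 2.14, 3.52 and 2.44 CPM with sg4 and was 2.18-fold lower, a call kept without any 1 library. LINC01320 measured 8.003, 5.92 and 8.10 CPM in the controls and 4.78, 3.71 and 4.09 CPM with sg4 and lost its call without control 1 or 3 or sg4 library 2 or 3 (adjusted p from 0.0592 to 0.0723, edgeR). ANXA2R-AS1 fell by 0.72 and lost its call without control 1 or 3 or sg4 library 2 or 3 (adjusted p from 0.0668 to 0.115, edgeR). FBXL19-AS1 fell by 0.86 and lost its call without control 1 or 3 or sg4 library 1, 2 or 3 (adjusted p from 0.0576 to 0.122, edgeR). The strand setting of the counting is not given in the sources used here, so reads of the 3 antisense genes cannot be told from those of their partners. Over all 755 tested long noncoding genes 4 were called higher and 19 lower, with a median log2 fold change of −0.08, beside 616 higher and 434 lower of 12342 protein-coding genes with a median of 0.00017. Among nuclear RNAs and host genes of small nucleolar RNAs, 3 of 20 fell (15% against 3.42% of all genes) and 2 rose (10% against 4.7%). NEAT1, the scaffold of paraspeckles, measured 687, 423 and 646 CPM in the controls and 311, 476 and 368 CPM with sg4 and fell by 0.60 (SE 0.13). Control 2 was lower than sg4 library 2, so the groups overlapped, although the call held in all 6 fits with a library left out. SNHG3 (−0.37) and NORAD (−0.24), which binds Pumilio proteins, also fell. SNHG5 rose by 0.52 and by 0.28 after the length correction. SNHG15 rose by 0.45 but lost its call without control 1, 2 or 3 or sg4 library 2 or 3 (adjusted p from 0.0558 to 0.170, edgeR), and it was not called after the length correction (adjusted p = 0.0916, edgeR). The 4 tested ribosomal RNA genes, RNA28SN1, RNA28SN5, RNA45SN1 and RNA45SN5, were all called higher, by 0.42 to 0.49. They are near-identical copies that share reads and count as 1 observation, and what ribosomal RNA remains in a library depends on how it was removed.

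Several genes of mitosis rose with sg4. Of 45 tested members 18 were called higher and 0 lower, where 4.7% of all genes were called higher, with a median log2 fold change of 0.21 (all tested genes −0.0031). After the length correction, where 4.79% of all genes were called higher, 21 members were higher and 0 lower. The call count was 9 without control 3 and 11 without sg4 library 3. The median over members, relative to the mean of the controls, was 0.00, 0.04 and −0.03 in controls 1, 2 and 3 and 0.30, 0.15 and 0.16 in sg4 libraries 1, 2 and 3. So sg4 library 1, which carries little of the length trend, was the highest of the 3. CKS2, which binds cyclin-dependent kinases, measured 78.1, 67.1 and 58.6 CPM in the controls and 96.4, 92.1 and 94.3 CPM with sg4 (log2 fold change 0.47 ± 0.081, adjusted p = 0.000831, edgeR). CDC20, the activator of the anaphase-promoting complex, measured 183, 186 and 172 CPM in the controls and 223, 222 and 237 CPM with sg4. Its groups were separate and tight, and it rose by 0.34 ± 0.056 on the log2 scale with an adjusted p of 0.000749 by edgeR. AURKB, the kinase of the chromosomal passenger complex, rose by 0.41, MAD2L1 of the spindle checkpoint by 0.40, and CCNB1, the cyclin of mitotic entry, by 0.34. These 5 were called whichever library was left out. TOP2A, the most abundant member, measured 497, 529 and 508 CPM in the controls and 639.9, 556 and 526 CPM with sg4 and was not called (adjusted p = 0.0948, edgeR), but it was after the length correction (0.21, adjusted p = 0.0134, edgeR).

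Many mitotic promoters share the letters TTTGAA, known as the cell cycle homology region and bound by the MuvB complexes, and CCAAT boxes bound by NF-Y. The windows below show the 120 bases before the RefSeq transcription start of the 5 called genes with the largest increase among 8 that hold both motifs there, read towards the gene. They come from the RefSeq promoter table of GRCh38.p14. Capitals mark TTTGAA or CCAAT on either strand (TTCAAA and ATTGG on the opposite strand), and the motifs do not overlap each other.
CKS2, chr9:89311075-89311194, plus strand: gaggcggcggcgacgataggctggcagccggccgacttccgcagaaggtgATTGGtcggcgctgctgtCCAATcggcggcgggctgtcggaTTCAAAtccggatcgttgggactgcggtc
CDC20, chr1:43358861-43358980, plus strand: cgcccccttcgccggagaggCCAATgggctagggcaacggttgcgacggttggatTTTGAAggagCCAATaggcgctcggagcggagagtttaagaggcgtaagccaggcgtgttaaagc
CKS1B, chr1:154974561-154974680, plus strand: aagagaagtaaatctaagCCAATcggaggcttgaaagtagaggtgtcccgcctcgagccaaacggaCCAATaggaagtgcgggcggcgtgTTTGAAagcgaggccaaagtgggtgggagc
ECT2, chr3:172750606-172750725, plus strand: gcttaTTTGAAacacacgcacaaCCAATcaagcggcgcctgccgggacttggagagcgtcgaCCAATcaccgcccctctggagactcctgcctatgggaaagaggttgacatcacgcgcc
CCNB2, chr15:59105026-59105145, plus strand: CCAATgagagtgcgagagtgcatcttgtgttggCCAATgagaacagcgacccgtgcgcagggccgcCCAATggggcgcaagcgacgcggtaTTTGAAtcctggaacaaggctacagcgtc
In the 250 bases before the start, TTTGAA on either strand was found in 22 of 39 mitosis members with a promoter in the table (56.4%), and in 8.31% of the 10792 tested genes with one. CCAAT was found in 29 of 39 (74.4%) and in 35.3% of all, and both motifs in 20 of 39 (51.3%) and in 3.43% of all. Of the 15 members called higher that have a promoter, 10 held TTTGAA and 14 held CCAAT. A match describes the letters and does not show that a factor binds there.

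In DNA replication and S phase 6 of 49 members rose, where 4.7% of all genes did, and 0 fell, with a median of 0.13. After the length correction 9 rose. RRM2, the regulatory subunit of ribonucleotide reductase, measured 164, 180.5 and 171 CPM in the controls and 235, 224 and 227 CPM with sg4, and its log2 fold change was 0.41 ± 0.056 (adjusted p = 0.000101, edgeR). GINS1, of the replicative helicase, rose by 0.39. Both were called whichever library was left out. RPA3, which binds single-stranded DNA, rose by 0.45 and lost its call without sg4 library 2 (adjusted p = 0.0515, edgeR). RFC3 of the clamp loader (0.34) lost its call without control 2 or 3 or sg4 library 2 or 3 (adjusted p from 0.0503 to 0.108, edgeR), and CDC6, a loader of the helicase (0.27), lost its call without control 1 or 2 or sg4 library 1 or 3 (adjusted p from 0.109 to 0.179, edgeR). MCM4, the most abundant member, was at 0.14 and was not called (adjusted p = 0.118, edgeR). The list had 3 calls without control 2 or sg4 library 3. Among 12 tested histone genes H2AZ1, a variant histone, measured 283, 276 and 246 CPM in the controls and 351, 352 and 367 CPM with sg4 and was the only call, higher by 0.41. Nucleolar and MYC target genes had 9 of 46 higher (19.6% against 4.7% of all genes) and 0 lower, a median of 0.13, and 5 calls without control 1. HSPE1 (0.62), the nucleoside diphosphate kinase NME1 (0.38), DKC1 of pseudouridylation (0.30) and the nuclear transport GTPase RAN (0.29) were each called in all 6 fits with a library left out, and NHP2 (0.28) lost its call without control 3 or sg4 library 2 or 3 (adjusted p from 0.111 to 0.281, edgeR).

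Many heat shock proteins and chaperones rose, a count that fell when control 1 was left out. Of 31 tested members 17 were called higher and 0 lower, 54.8% against 4.7% of all genes, with a median of 0.20. The count was 17 after the length correction as well, and 11 members were called in sg4 library 1 against controls 1 and 2. It was 3 without control 1, the library in which the list was lowest, and between 12 and 14 without any other library. Per library the median over members was −0.04, 0.03 and 0.00 in controls 1, 2 and 3 and 0.28, 0.17 and 0.18 in sg4 libraries 1, 2 and 3. HSPA8, the constitutive Hsp70 of the cytosol, measured 562, 601 and 654 CPM in the controls and 973, 812 and 795 CPM with sg4. Each sg4 library was above every control, sg4 library 1 most of all, with a log2 fold change of 0.51 ± 0.067 (adjusted p = 7.70e-05, edgeR). HSP90AA1, the inducible Hsp90, measured 672, 750.4 and 776 CPM in the controls and 1052, 864 and 830.4 CPM with sg4 and followed the same order of libraries, but lost its call without control 1 (adjusted p = 0.0522, edgeR). HSPE1, the mitochondrial co-chaperonin, measured 56.02, 66.8 and 45.1 CPM in the controls and 75.8, 94.3 and 88.8 CPM with sg4 (log2 fold change 0.62 ± 0.10). CCT4, of the chaperonin that folds actin and tubulin, rose by 0.38 in a call kept without any 1 library. CHORDC1, a co-chaperone of Hsp90, measured 31.5, 33.8 and 32.97 CPM in the controls and 47.5, 41.3 and 36.3 CPM with sg4 and lost its call without control 1 or 3 or sg4 library 1 or 2 (adjusted p from 0.0540 to 0.115, edgeR). HSP90AB1, the most abundant member, rose by 0.19 and lost its call without control 1 or 2 (adjusted p from 0.0530 to 0.111, edgeR).

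Heat shock factors bind repeats of GAA and its complement TTC. The letters of 3 such units in alternation, with any 2 bases between units, were searched on both strands of the 250 bases before each start. They stood in 3 of 28 members of the list with a promoter (10.7%), HSPA8, DNAJB6 and CHORDC1, and in 34 of 10792 tested genes (0.315%). Of the 16 called members with a promoter 2 held them. Their 120 bases before the start, read towards the gene, are shown with these letters in capitals.
HSPA8, chr11:123062137-123062256, minus strand: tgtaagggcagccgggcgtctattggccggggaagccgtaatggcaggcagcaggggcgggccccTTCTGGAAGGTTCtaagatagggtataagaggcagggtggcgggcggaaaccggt
CHORDC1, chr11:90223050-90223169, minus strand: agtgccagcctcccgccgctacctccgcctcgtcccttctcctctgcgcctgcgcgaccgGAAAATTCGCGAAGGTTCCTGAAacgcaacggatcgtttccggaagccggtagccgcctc
Proteasome subunits, which degrade ubiquitinated proteins, had 14 of 33 members higher (42.4% against 4.7% of all genes) and 0 lower, with a median of 0.21. In 29 of 33 all sg4 libraries lay above all controls, against 13.9% of all genes. PSMA2, of the catalytic core, measured 109.9, 113 and 96.7 CPM in the controls and 144, 147 and 153 CPM with sg4, with a log2 fold change of 0.48 ± 0.064 (adjusted p = 9.91e-05, edgeR). PSMD1 (0.28) and PSMD2 (0.27), of the regulatory particle, and PSMA7 (0.34) and PSMB3 (0.29), of the core, were called in all 6 fits with a library left out as well. SEM1, the smallest regulatory subunit, rose by 0.33 and lost its call without control 3 or sg4 library 2 or 3 (adjusted p from 0.123 to 0.223, edgeR). The length correction left 7 members higher, with a median of 0.15. There were 8 calls without control 1 or sg4 library 2 and 5 without control 3 or sg4 library 3.

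**Figure D3:**
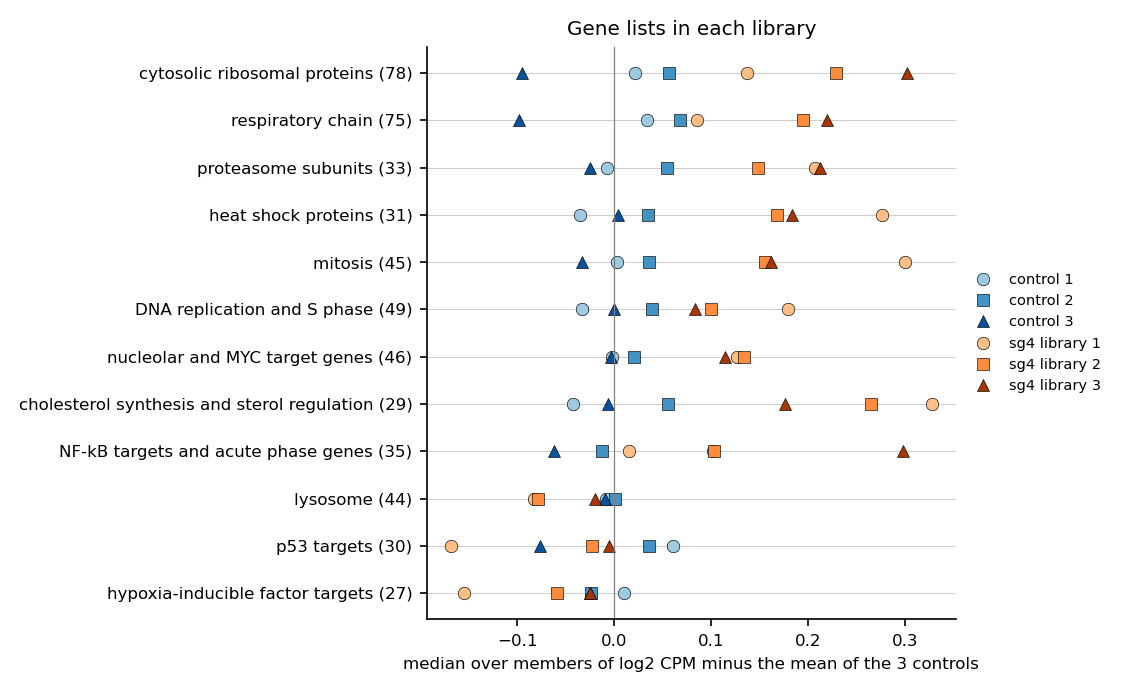
Median over the tested members of 12 gene lists of the log2 CPM minus the mean of the 3 controls (horizontal axis), in each library; the number of members is in parentheses. For mitosis, heat shock proteins and cholesterol synthesis sg4 library 1 is the highest of the 6, while for ribosomal proteins and the respiratory chain control 3 is lowest and sg4 library 3 highest.

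Genes of protein synthesis and respiration were also called higher with sg4, and the list medians here were smaller after the length correction. Among the proteins of the cytosolic ribosome, whose genes can share reads with pseudogenes, 78 genes were tested. The calls were 50 higher (64.1% against 4.7% of all genes) and 0 lower, with a median of 0.22. The median effective length of the 78 genes was 406 bases, and in the shortest decile of all genes 14% were called higher. After the length correction 22 were higher and 2 lower with a median of 0.08, and in sg4 library 1 against controls 1 and 2 6 were higher and 0 lower with a median of 0.08. The count was 26 without control 3, 30 without sg4 library 2 and 20 without sg4 library 3. Per library the median was 0.02, 0.06 and −0.10 in controls 1, 2 and 3 and 0.14, 0.23 and 0.30 in sg4 libraries 1, 2 and 3, lowest in control 3 and highest in sg4 library 3. RPLP2, of the ribosomal stalk, measured 94.3, 101 and 97.8 CPM in the controls and 137, 154 and 155 CPM with sg4. It kept its call in every fit with a library left out, and its log2 fold change of 0.61 was 0.35 after the length correction and 0.49 in sg4 library 1 alone. RPL39, of the large subunit, was at 0.58 and at 0.27 with the correction. RPL41, among the shortest coding mRNAs, measured 199, 195 and 133 CPM in the controls and 198, 292 and 297 CPM with sg4. sg4 library 1 was level with controls 1 and 2, and RPL41 lost its call without sg4 library 2 or 3 (adjusted p from 0.0558 to 0.0572, edgeR). RPS2, the most abundant member, was at 0.20, at 0.09 after the correction (adjusted p = 0.192, edgeR), and lost its call without control 1 or 3 or sg4 library 2 or 3 (adjusted p from 0.0994 to 0.186, edgeR).

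In the respiratory chain 26 of 75 subunit genes were called higher (34.7% against 4.7% of all genes) and 0 lower. The median was 0.16, and the median effective length was 550 bases. After the length correction 10 were higher and 2 lower with a median of 0.03. In sg4 library 1 against controls 1 and 2 the median was 0.02. There were 16 calls without control 1, 10 without control 3 or sg4 library 2 and 7 without sg4 library 3. NDUFB3 of complex I rose by 0.49 and kept its call in every fit with a library left out. NDUFA1 of complex I measured 19.4, 19.7 and 11.2 CPM in the controls and 19.1, 30.6 and 32.2 CPM with sg4, so control 3 was low and sg4 libraries 2 and 3 were high. It lost its call without control 3 or sg4 library 2 or 3 (adjusted p from 0.0669 to 0.124, edgeR), and its log2 fold change in sg4 library 1 alone was −0.04. COX6B1 of complex IV (0.44) lost its call without control 3 or sg4 library 2 or 3 (adjusted p from 0.0505 to 0.0708, edgeR), and ATP5ME of the ATP synthase (0.57) lost its call without control 1 or 3 or sg4 library 2 or 3 (adjusted p from 0.0590 to 0.145, edgeR). ATP5F1B, the most abundant member, was at 0.10 and was not called (adjusted p = 0.227, edgeR). Of 73 mitochondrial ribosomal proteins 6 were higher (8.22% against 4.7% of all genes) and 0 lower, with a median of 0.14 that was 0.06 after the correction. There were 3 higher calls without sg4 library 3 and 1 without control 3. In sg4 library 1 against controls 1 and 2 there were 1 higher and 1 lower call. MRPL23 measured 33.1, 32.02 and 30.7 CPM in the controls and 45.3, 47.2 and 45.4 CPM with sg4, kept its call in every fit with a library left out and was at 0.38 after the correction. MRPL14 (0.39) lost its call without control 3 or sg4 library 2 (adjusted p from 0.0964 to 0.0973, edgeR), and MRPS12 (0.37) lost its call without control 3 or sg4 library 2 (adjusted p from 0.0514 to 0.0640, edgeR).

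Over all genes a trend with effective length was visible. Of the 1336 genes with the shortest effective length 187 were called higher (14%) and 8 lower, and of the 1335 with the longest 17 were higher (1.27%) and 105 lower. The median log2 fold change ran from 0.11 in the shortest decile to −0.07 in the longest, a difference of 0.18, which lay between 0.12 and 0.25 when a library was left out and was −0.02 in sg4 library 1 against controls 1 and 2. After each library's own trend with length had been removed, 640 genes were called higher (4.79%) and 489 lower (3.66%), with 82 higher and 44 lower in the shortest decile and 65 and 57 in the longest. Of the 627 and 456 calls, 492 and 388 were called after the correction too. The correction takes out whatever goes with length, so a change in the cells that goes with length and a difference between libraries cannot be told apart here. The fragment length implied by the effective lengths ran from 293.3 to 297.7 bases in the 6 libraries. In sg2 libraries 1, 2 and 3 it was 269.4, 291.1 and 270.0 bases. What this does to the comparison of the guides was not tested.

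**Figure D4:**
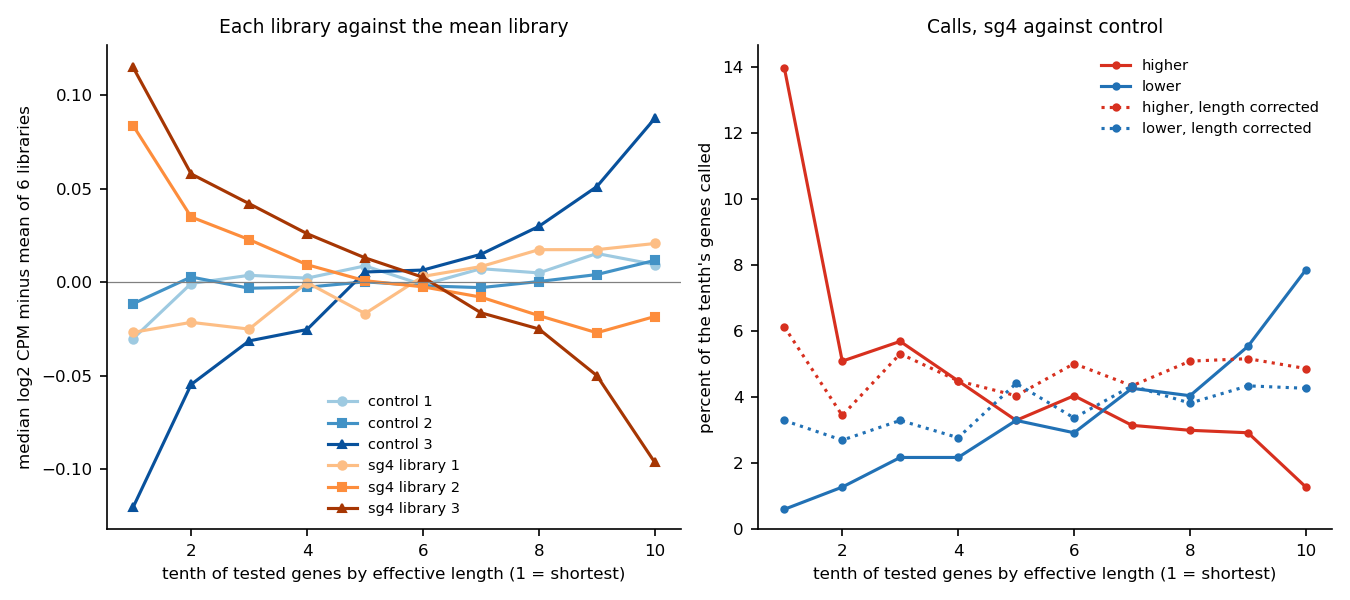
Left: median log2 CPM of each library minus the mean of the 6 libraries (vertical axis) in deciles of the tested genes by effective length (horizontal axis, 1 is the shortest), with control 3 falling to −0.12 and sg4 library 3 rising to 0.11 in the shortest decile. Right: percent of each decile called higher (red) or lower (blue), before (solid) and after (dotted) the length correction; the share called higher in the shortest decile drops from 14% to 6.14%.

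Cholesterol synthesis had the highest median of the pathway lists. Of 29 tested members 13 were called higher (44.8% against 4.7% of all genes) and 1 lower (3.45% against 3.42%). The median was 0.25, and 0.21 after the length correction, where the counts were the same. There were 9 higher calls without control 1 or sg4 library 1, 10 without control 2 and 11 without sg4 library 2. In sg4 library 1 against controls 1 and 2 10 were higher and 0 lower. Per library the median over members was −0.04, 0.06 and −0.01 in controls 1, 2 and 3 and 0.33, 0.26 and 0.18 in sg4 libraries 1, 2 and 3. INSIG1, which retains the sterol sensor in the endoplasmic reticulum and is itself a target of SREBP, measured 181, 213 and 207 CPM in the controls and 306, 259 and 260.0 CPM with sg4. sg4 library 1 was highest, and the log2 fold change was 0.46 ± 0.069 (adjusted p = 0.000288, edgeR). IDI1, the isomerase of the isoprene units, measured 49.1, 53.95 and 52.8 CPM in the controls and 73.8, 68.99 and 64.2 CPM with sg4 and rose by 0.41. SQLE, the squalene epoxidase, measured 122, 127 and 124 CPM in the controls and 176, 161 and 144 CPM with sg4 and rose by 0.37. FDFT1, the squalene synthase (0.38), and MVD, a decarboxylase of the mevalonate pathway (0.35), followed. These 5 genes were called whichever library was left out. SCAP, the escort of SREBP and the lower member, fell by 0.21 and lost its call when any 1 of the 6 libraries was left out (adjusted p from 0.0655 to 0.139, edgeR). As a check with the other guide, 5 of these 29 genes were called higher with sg2 and 1 lower, with a median of 0.15. The share of all genes called with sg2 is not given here, and the guides were not shown to differ in any of the 29.

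Lipid genes outside this pathway had fewer calls. In triglyceride synthesis and lipid droplets 2 of 31 rose (6.45% against 4.7% of all genes), G0S2 and ACSL4. The higher calls were 4 without control 3 and 1 without control 1 or sg4 library 3. ACSL4, an acyl-CoA synthetase of polyunsaturated fatty acids (0.24), lost its call without control 1 or sg4 library 1 or 3 (adjusted p from 0.0633 to 0.108, edgeR). DGAT1 was the only member called lower. MGLL, the monoglyceride lipase and the most abundant member, was at −0.06 and was not called (adjusted p = 0.490, edgeR). In fatty acid synthesis and uptake 3 of 22 rose (13.6% against 4.7% of all genes) and 0 fell. After the length correction 6 rose, where 4.79% of all genes did, and without control 1 the list had 1 higher call. FABP5, a carrier of fatty acids, measured 47.95, 47.4 and 44.7 CPM in the controls and 61.2, 64.3 and 68.4 CPM with sg4, with a log2 fold change of 0.47 ± 0.074 (adjusted p = 0.000388, edgeR) that was 0.32 after the length correction. The elongase ELOVL5 (0.22) lost its call without control 1 or 3 (adjusted p from 0.0797 to 0.0840, edgeR), and the desaturase FADS2 (0.21) lost its call without control 1 (adjusted p = 0.0583, edgeR). SCD, the stearoyl-CoA desaturase, measured 1513, 1588 and 1641 CPM in the controls and 1689, 1634 and 1506 CPM with sg4, and its groups overlapped. In fatty acid oxidation 1 of 25 was called, EHHADH of the peroxisome (−0.29), which lost its call without control 1 or 3 or sg4 library 2 or 3 (adjusted p from 0.105 to 0.231, edgeR). HADHA of the mitochondrial trifunctional protein was at 0.03 (adjusted p = 0.804, edgeR).

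Glycolysis had 5 of 28 members higher and 2 lower, where 4.7% and 3.42% of all genes were called, with a median of 0.03. The higher calls were 1 without control 1, 2 without sg4 library 3, 3 without sg4 library 2 and 0 in sg4 library 1 against controls 1 and 2. PFKL, the liver type of phosphofructokinase, measured 220.2, 215 and 217 CPM in the controls and 169, 174 and 170.3 CPM with sg4 and fell by 0.35 (adjusted p = 0.000336, edgeR). PGK1 measured 479, 476 and 465 CPM in the controls and 545, 557 and 564 CPM with sg4 and rose by 0.23. Both calls were kept without any 1 library, so enzymes of the same pathway moved in opposite directions. PGAM1 (0.19) lost its call without control 1 or sg4 library 2 (adjusted p from 0.0621 to 0.0976, edgeR), LDHA (0.18) lost its call without control 1 or sg4 library 3 (adjusted p from 0.0526 to 0.101, edgeR), and PDK2, a kinase that blocks pyruvate dehydrogenase (−0.37), lost its call without control 1 or 2 or sg4 library 2 or 3 (adjusted p from 0.0641 to 0.0865, edgeR). PKM, the most abundant member, was at 0.04 and was not called (adjusted p = 0.632, edgeR).

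In the list of targets of the hypoxia-inducible factors, the called genes were lower. PGK1 and LDHA, which were called higher under glycolysis above, are not in this list. Of 27 members 6 fell (22.2% against 3.42% of all genes) and 0 rose, with a median of −0.08. The lower calls were 3 without control 1 or 2. Without sg4 library 1 the list had 3 lower and 3 higher calls, so the absence of higher calls rested on that library. NDRG1, a stress-induced gene and a strong target of these factors, measured 3015, 2786 and 2766 CPM in the controls and 1886, 2117 and 2322 CPM with sg4. The groups did not overlap, and NDRG1 fell by 0.44 (adjusted p = 7.70e-05, edgeR). TGFA, a ligand of the EGF receptor, measured 1214, 1162 and 1192 CPM in the controls and 930.4, 982 and 1038 CPM with sg4 and fell by 0.27. EGLN3, the oxygen-sensing hydroxylase that these factors induce, measured 142, 154 and 144 CPM in the controls and 112, 119 and 126 CPM with sg4 and fell by 0.30. These 3 were called whichever library was left out. ADM, the vasodilator adrenomedullin (−0.25), lost its call without control 1 or 2 or sg4 library 1 (adjusted p from 0.0556 to 0.105, edgeR), and MXI1, which opposes MYC (−0.27), lost its call when any 1 of the 6 libraries was left out (adjusted p from 0.0514 to 0.221, edgeR). The lowest list median was that of sg4 library 1, with 0.01, −0.02 and −0.03 in controls 1, 2 and 3 and −0.15, −0.06 and −0.03 in sg4 libraries 1, 2 and 3. EPAS1, the gene of HIF-2 alpha, was at −0.02 and was not called (adjusted p = 0.865, edgeR).

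Among 56 other oxygenases that use 2-oxoglutarate 2 were higher (3.57% against 4.7% of all genes) and 5 lower (8.93% against 3.42%), with a median of −0.06. Without control 1, 2 or 3, 2 were lower. Apart from EGLN3, KDM6B, a demethylase of histone H3, measured 42.03, 40.4 and 47.1 CPM in the controls and 34.9, 32.3 and 34.8 CPM with sg4 and lost its call without control 3 or sg4 library 2 (adjusted p from 0.0662 to 0.0824, edgeR). FTO, which removes methyl groups from RNA (−0.32), lost its call without control 1 or 2 or sg4 library 2 or 3 (adjusted p from 0.0590 to 0.175, edgeR), and KDM4A (−0.22) lost its call without control 1, 2 or 3 or sg4 library 1 or 2 (adjusted p from 0.0587 to 0.117, edgeR). OGFOD1, which hydroxylates a ribosomal protein, measured 59.6, 60.5 and 65.8 CPM in the controls and 77.6, 73.4 and 77.1 CPM with sg4 and rose by 0.30, but lost its call without control 1 or sg4 library 3 (adjusted p from 0.0517 to 0.0668, edgeR). ASPH, a hydroxylase of the endoplasmic reticulum, rose by 0.17 and lost its call when any 1 of the 6 libraries was left out (adjusted p from 0.0530 to 0.137, edgeR).

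Of 30 tested p53 targets 6 fell and 1 rose, where 3.42% and 4.7% of all genes were called, with a median of −0.07. CDKN1A, the cell cycle inhibitor p21, measured 673, 639 and 616 CPM in the controls and 500.3, 569 and 558 CPM with sg4 and fell by 0.25. Its groups did not overlap, but it lost its call without control 1 (adjusted p = 0.0674, edgeR). RRM2B, a subunit of ribonucleotide reductase, measured 175, 166 and 166 CPM in the controls and 138, 139 and 131 CPM with sg4 and fell by 0.31 in a call kept without any 1 library. BTG2 (−0.50) lost its call without control 1 or 2 or sg4 library 1, 2 or 3 (adjusted p from 0.0528 to 0.172, edgeR), and FDXR (−0.33) lost its call without control 1 or 2 or sg4 library 1, 2 or 3 (adjusted p from 0.0777 to 0.184, edgeR). ZMAT3 (−0.29) lost its call without control 1 (adjusted p = 0.0753, edgeR), and MDM2, the ubiquitin ligase of p53 (−0.26), lost its call without sg4 library 2 (adjusted p = 0.0666, edgeR). The list had 2 lower calls without control 1 and 3 without sg4 library 2.

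Of 24 renal tubule genes 4 fell, where 3.42% of all genes did, and 1 rose, with a median of −0.07. The lower calls were 2 without control 3 or sg4 library 3 and 1 in sg4 library 1 against controls 1 and 2. CDH16, the cadherin of the kidney, measured 24.7, 23.2 and 24.9 CPM in the controls and 14.7, 16.1 and 15.98 CPM with sg4. The sg4 values were close together and below every control, and CDH16 fell by 0.64 (SE 0.10, adjusted p = 0.000540, edgeR) in all 6 fits with a library left out. PDZK1, a scaffold of apical transporters, measured 60.5, 63.5 and 64.5 CPM in the controls and 53.1, 52.9 and 44.9 CPM with sg4 and lost its call without sg4 library 3 (adjusted p = 0.0878, edgeR). ATP1B1 of the sodium pump (−0.22) lost its call without control 3 (adjusted p = 0.0647, edgeR). CDH6, a cadherin of proximal tubule and renal carcinoma, rose by 0.25 and lost its call without control 1 or 2 or sg4 library 1 or 3 (adjusted p from 0.0596 to 0.244, edgeR). Keratins of renal carcinoma were higher: KRT18 measured 141, 141 and 126 CPM in the controls and 186, 179 and 197 CPM with sg4 and rose by 0.46 whichever library was left out, and its partner KRT8 rose by 0.20 and lost its call without control 1 or sg4 library 3 (adjusted p from 0.0505 to 0.0759, edgeR).

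Some lysosomal enzymes were lower with sg4. Of 44 tested members 8 fell (18.2% against 3.42% of all genes) and 1 rose, and 11 fell after the length correction (3.66% of all genes there). There were 4 lower calls without control 1 and 5 without control 3 or sg4 library 3. Besides GAA, TPP1, a peptidase, measured 183, 171 and 202 CPM in the controls and 144, 141 and 137 CPM with sg4 and fell by 0.40 (adjusted p = 0.000387, edgeR). ARSA, the arylsulfatase that degrades sulfatides, measured 43.9, 43.9 and 46.6 CPM in the controls and 32.5, 37.9 and 33.7 CPM with sg4 and fell by 0.37. Both were called whichever library was left out. SGSH (−0.48) and IDUA (−0.39), which degrade heparan sulfate, were less firm: SGSH lost its call without control 1 or sg4 library 1 (adjusted p from 0.0583 to 0.0846, edgeR), and IDUA lost its call without control 1 or 3 or sg4 library 3 (adjusted p from 0.0675 to 0.118, edgeR). CTSD, the protease cathepsin D and the most abundant member, measured 5061, 5090.1 and 5174 CPM in the controls and 4199, 4854 and 4776 CPM with sg4 and was at −0.15, which was not called (adjusted p = 0.0572, edgeR). It was called after the length correction (−0.17, adjusted p = 0.00943, edgeR) and without sg4 library 2 (adjusted p = 0.0435, edgeR). The list median was −0.05, so most members were not lower by much.

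In the interferon response STAT2, a transcription factor that answers to type I interferon, measured 77.7, 71.3 and 85.99 CPM in the controls and 47.2, 56.5 and 55.1 CPM with sg4 and fell by 0.56 (SE 0.082, adjusted p = 0.000196, edgeR). Its call was kept without any 1 library. Of 52 interferon-stimulated genes 3 fell (5.77% against 3.42% of all genes) and 0 rose. Besides STAT2 these were BST2, which tethers viruses (−0.23) and lost its call without control 2 (adjusted p = 0.0617, edgeR), and PARP14 (−0.21), which lost its call without control 1, 2 or 3 or sg4 library 2 or 3 (adjusted p from 0.0638 to 0.0887, edgeR). The list had 1 lower call without control 2, and 1 higher call without sg4 library 1. With sg2, 14 of the 52 genes were called lower and 0 higher, and the guides were not shown to differ. The share of all genes called with sg2 is not given here. In antigen presentation 1 of 25 was called, PSME2 of the immunoproteasome activator (0.28), which lost its call without control 1, 2 or 3 or sg4 library 2 or 3 (adjusted p from 0.0501 to 0.0987, edgeR) and was not called after the length correction (adjusted p = 0.220, edgeR).

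NF-kB targets and acute phase genes had 6 of 35 members higher (4.7% of all genes) and 0 lower, with a median of 0.15. Without control 1 or sg4 library 3 the list had 2 higher calls, and without control 3 or sg4 library 2 it had 3. Without control 2 there were 3 higher and 1 lower, and in sg4 library 1 against controls 1 and 2 there were 0. C3, the central complement component, measured 68.9, 65.4 and 69.8 CPM in the controls and 87.3, 87.8 and 93.5 CPM with sg4, with a log2 fold change of 0.40 ± 0.066 (adjusted p = 0.000594, edgeR) and a call in all 6 fits with a library left out. SOD2, the mitochondrial superoxide dismutase, measured 392, 383 and 383 CPM in the controls and 419, 426 and 521 CPM with sg4. sg4 library 3 stood above the other sg4 libraries, and SOD2 lost its call without control 1, 2 or 3 or sg4 library 3 (adjusted p from 0.0675 to 0.227, edgeR). PTX3, a soluble pattern receptor (0.44), lost its call without control 3 or sg4 library 2 or 3 (adjusted p from 0.0782 to 0.103, edgeR), and VCAM1, an adhesion receptor (0.23), lost its call without control 1 or 2 or sg4 library 3 (adjusted p from 0.0806 to 0.107, edgeR). CSF1 (0.20) lost its call without control 1 or 2 or sg4 library 1 or 2 (adjusted p from 0.0578 to 0.202, edgeR). SERPINA3 had few counts, at 0.605, 0.325 and 0.640 CPM in the controls and 1.07, 1.92 and 1.58 CPM with sg4, and lost its call without control 1, 2 or 3 or sg4 library 2 or 3 (adjusted p from 0.0668 to 0.142, edgeR). The list median by library was 0.10, −0.01 and −0.06 in controls 1, 2 and 3 and 0.02, 0.10 and 0.30 in sg4 libraries 1, 2 and 3, highest in sg4 library 3. In sg4 library 1 against controls 1 and 2 the median log2 fold change was −0.03.

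Around the EGF receptor, ligands moved in opposite directions: HBEGF rose while TGFA fell. ERRFI1, an inhibitor of the receptor, measured 1791, 1740.2 and 1711 CPM in the controls and 1323, 1419.8 and 1518 CPM with sg4 and fell by 0.30 (adjusted p = 0.000706, edgeR) whichever library was left out. EGFR itself measured 434, 421 and 446 CPM in the controls and 396, 399 and 334 CPM with sg4 and lost its call without control 1, 2 or 3 or sg4 library 3 (adjusted p from 0.0664 to 0.211, edgeR). GAS6, the ligand of AXL, rose by 0.28 and lost its call without control 1 or 3 or sg4 library 2 or 3 (adjusted p from 0.0597 to 0.0959, edgeR). In activin and TGF-beta signalling 3 of 30 rose (10% against 4.7% of all genes) and 0 fell, and these 3 were called whichever library was left out. They were INHBA, INHBB and FSTL3, a secreted inhibitor of activins, which measured 105, 103 and 93.02 CPM in the controls and 122, 128 and 127 CPM with sg4 and rose by 0.32 (adjusted p = 0.00267, edgeR). So both activin subunits and an antagonist were higher. TGFB1, the most abundant member, was at −0.14 and was not called (adjusted p = 0.0983, edgeR).

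Among 34 immediate early genes 3 fell (8.82% against 3.42% of all genes) and 2 rose (5.88% against 4.7%). Without control 1 or 3 or sg4 library 3 there was 1 lower call, and without sg4 library 1 there were 4 higher calls. FOS measured 86.6, 90.6 and 90.7 CPM in the controls and 66.2, 67.3 and 61.5 CPM with sg4 and fell by 0.46 (adjusted p = 0.000191, edgeR) in a call kept without any 1 library. FOSB measured 63.2, 42.5 and 75.6 CPM in the controls and 38.9, 50.2 and 35.1 CPM with sg4, with control 2 below sg4 library 2, and lost its call without control 1 or 3 or sg4 library 1 or 3 (adjusted p from 0.0629 to 0.127, edgeR). EGR1 measured 230.2, 189 and 238 CPM in the controls and 194, 177 and 178 CPM with sg4 and lost its call without control 1 or 3 or sg4 library 2 or 3 (adjusted p from 0.104 to 0.123, edgeR). DUSP5, a phosphatase of ERK, measured 56.9, 50.05 and 50.95 CPM in the controls and 61.8, 71.3 and 70.4 CPM with sg4 and rose by 0.37 whichever library was left out, as did HBEGF.

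In the mesenchymal and matrix list 7 of 43 rose (16.3% against 4.7% of all genes), or 4 without sg4 library 3. In it 4 fell (9.30% against 3.42%), and the median was 0.01. CD44, the receptor of hyaluronan, measured 263, 277 and 289 CPM in the controls and 402, 411 and 419.7 CPM with sg4. The groups were far apart for their spread, and the log2 fold change was 0.57 ± 0.053 (adjusted p = 1.98e-06, edgeR). FN1, fibronectin, was the most abundant member of any list, at 13658, 13455 and 14950.0 CPM in the controls and 11725, 11519.6 and 11003 CPM with sg4, and it fell by 0.30, or by 0.23 after the length correction. Both calls were kept without any 1 library. PLAU, the urokinase, measured 85.95, 85.1 and 79.4 CPM in the controls and 93.5, 102 and 121 CPM with sg4 and lost its call without sg4 library 3 (adjusted p = 0.0987, edgeR), and its receptor PLAUR rose by 0.34 and lost its call without control 1 or 2 or sg4 library 2 or 3 (adjusted p from 0.0566 to 0.301, edgeR). ACTA2, smooth muscle actin, measured 16.9, 13.9 and 15.1 CPM in the controls and 8.18, 11.01 and 11.2 CPM with sg4 and fell by 0.60, but lost its call without control 1 or sg4 library 1 (adjusted p from 0.0503 to 0.0743, edgeR). Control 1 was the highest library for ACTA2 too. The log2 fold change of ACTA2 was −0.52 without control 1 and −0.46 without sg4 library 1.

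Splicing factors and kinases had 6 of 63 higher (9.52% against 4.7% of all genes) and 2 lower (3.17% against 3.42%), with a median of 0.03. Without control 3 or sg4 library 3 these counts were 3 and 1. Core proteins of the spliceosome with short transcripts rose: SNRPG measured 35.3, 32.9 and 28.9 CPM in the controls and 39.7, 48.2 and 47.7 CPM with sg4 and rose by 0.48, or by 0.30 after the length correction, SNRPD2 rose by 0.43 and 0.28, and SNRPE by 0.39 and 0.35. All 3 were called whichever library was left out, while SNRPB (0.34) lost its call without control 3 or sg4 library 3 (adjusted p from 0.0503 to 0.0597, edgeR). The lower members were PRPF40B and LUC7L3, which measured 153, 127 and 154 CPM in the controls and 122, 129 and 114 CPM with sg4 with control 2 among the sg4 values and lost its call without control 1 or 3 or sg4 library 1 or 3 (adjusted p from 0.0576 to 0.173, edgeR). LUC7L3 was also the only call among 17 known partners of JMJD6. RNPS1, the most abundant partner, was at 0.12 (adjusted p = 0.172, edgeR). In transcription elongation 1 of 37 rose (2.70% against 4.7% of all genes) and 2 fell (5.41% against 3.42%). POLR2A, the largest subunit of RNA polymerase II, measured 314, 295 and 356 CPM in the controls and 275, 274 and 245 CPM with sg4 and lost its call without control 3 or sg4 library 3 (adjusted p from 0.0585 to 0.0665, edgeR). AFF1 (−0.19) and ELL2 (0.27), of the super elongation complex, were close to the threshold: AFF1 lost its call when any 1 of the 6 libraries was left out (adjusted p from 0.0551 to 0.184, edgeR), and ELL2 lost its call when any 1 of the 6 libraries was left out (adjusted p from 0.0526 to 0.136, edgeR).

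Stress lists outside the chaperones changed in few members, apart from NRF2 targets and thiol antioxidant enzymes. Of 27 genes of the unfolded protein response 2 rose (7.41% against 4.7% of all genes) and 1 fell (3.70% against 3.42%). SSR3, of the translocon (0.29), kept its call without any 1 library. MANF (0.34) lost its call without control 1, 2 or 3 or sg4 library 2 or 3 (adjusted p from 0.0545 to 0.149, edgeR), and SYVN1 (−0.27) lost its call without control 1, 2 or 3 or sg4 library 3 (adjusted p from 0.0727 to 0.143, edgeR). HSPA5, the chaperone BiP, measured 883, 904 and 947 CPM in the controls and 979, 942 and 932 CPM with sg4 and was not called (adjusted p = 0.482, edgeR). In the ATF4 and amino acid response NUPR1, a stress-induced chromatin protein, was the only call of 30. It measured 184, 179.9 and 149.8 CPM in the controls and 112, 138 and 131 CPM with sg4 and fell by 0.43 (adjusted p = 0.00128, edgeR). Of 44 NRF2 targets and thiol antioxidant enzymes 8 rose (18.2% against 4.7% of all genes) and 2 fell (4.55% against 3.42%). After the length correction 4 rose and 3 fell, and without control 1 or sg4 library 3 5 rose. AKR1B1, the aldose reductase, measured 1289, 1275 and 1207 CPM in the controls and 1481, 1597 and 1619.6 CPM with sg4 and rose by 0.32, and PRDX1, a peroxiredoxin, measured 400.5, 446 and 417 CPM in the controls and 569.6, 525 and 522 CPM with sg4 and rose by 0.35. Both were called after the length correction and whichever library was left out. The metallothionein MT1E rose by 0.47 and MT1X by 0.33, but these short genes have close relatives, and MT1X lost its call without control 1 or 3 or sg4 library 3 (adjusted p from 0.0824 to 0.187, edgeR) and was at 0.01 after the length correction. ABCC3, a transporter, fell by 0.27 and lost its call without control 1 or 3 or sg4 library 1 or 3 (adjusted p from 0.0597 to 0.120, edgeR). Among 16 clock genes PER3 (−0.32) and NPAS2 (−0.36) fell (12.5% against 3.42% of all genes). PER3 lost its call without control 3 or sg4 library 3 (adjusted p from 0.0563 to 0.0715, edgeR), while NPAS2 lost its call without control 1, 2 or 3 or sg4 library 2 or 3 (adjusted p from 0.0943 to 0.142, edgeR).

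**Figure D5:**
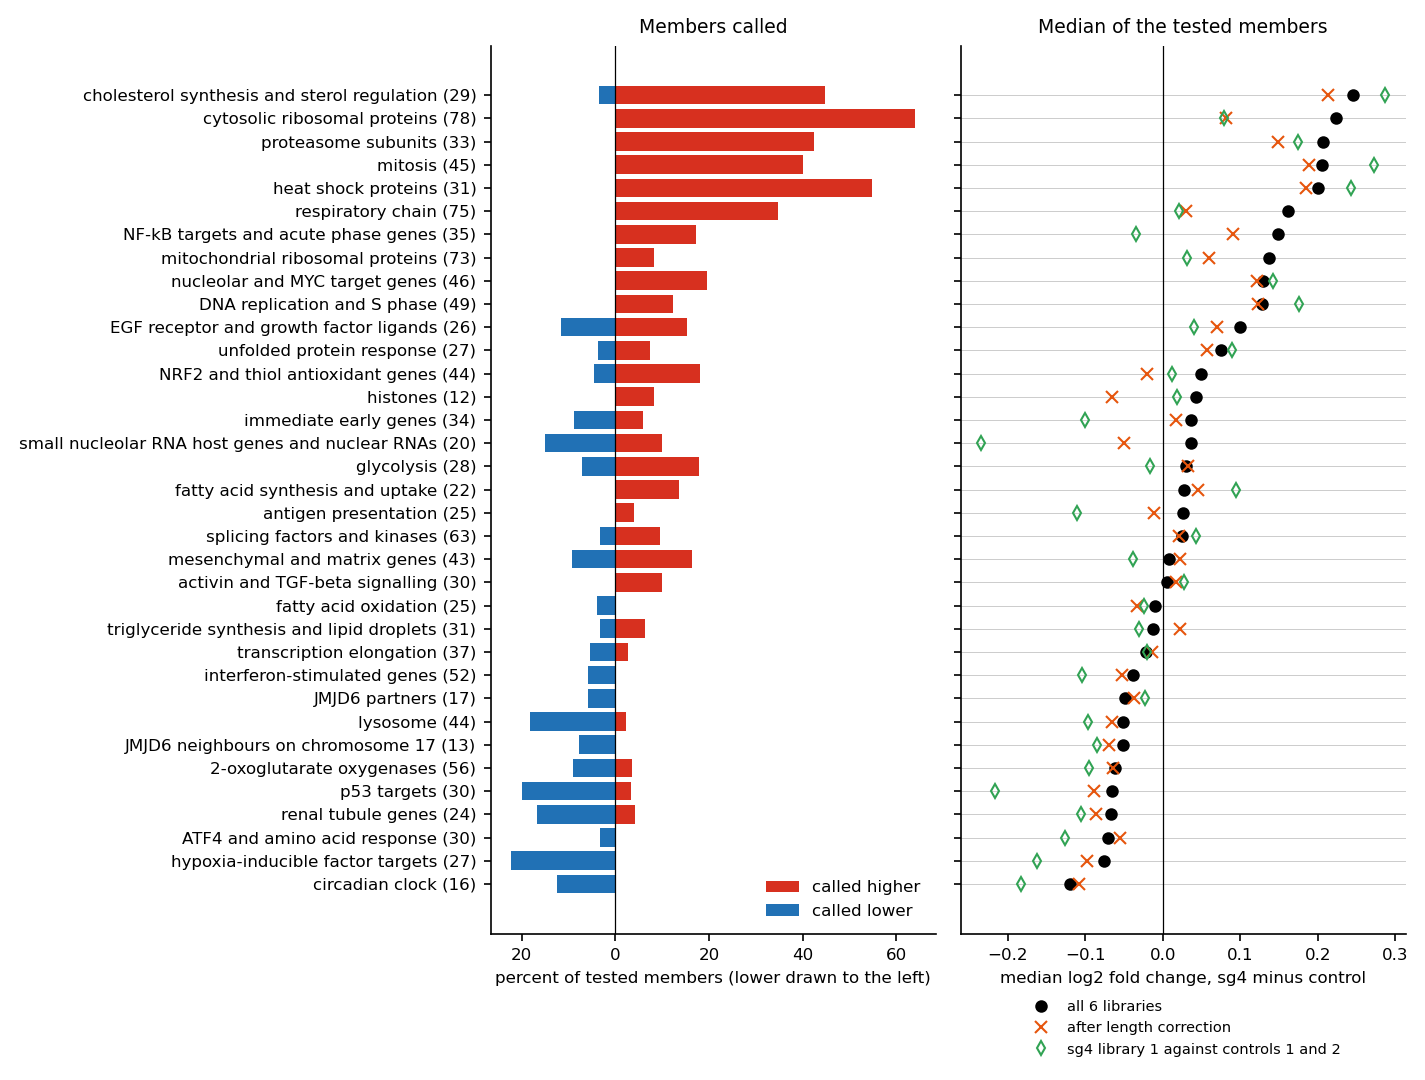
Left: percent of the tested members (number in parentheses) of each of 35 gene lists called higher (red) or lower (blue) with sg4. The shares of all tested genes, 4.7% higher and 3.42% lower, are not drawn. Right: median log2 fold change of the members in all 6 libraries, after the length correction, and in sg4 library 1 against controls 1 and 2; after the length correction the median of ribosomal proteins goes from 0.22 to 0.08 and that of the respiratory chain from 0.16 to 0.03, mitosis from 0.21 to 0.19 and cholesterol synthesis from 0.25 to 0.21.

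The sg2 libraries, as a check, were set against sg4 in a fit of all 9 RNA libraries. The guides differed in 8 of 13530 genes (0.0591%), and 4 of these were among the calls of sg4 against control. C3 was 68.95, 65.5 and 69.8 CPM in the controls, 87.3, 87.5 and 93.2 CPM with sg4 and 62.99, 60.6 and 73.4 CPM with sg2, so it was higher with sg4 than in any sg2 or control library (log2 difference sg4 minus sg2 0.44, adjusted p = 0.0150, edgeR). SOD2 was 392, 384 and 383 CPM in the controls, 418, 424 and 519 CPM with sg4 and 328, 316 and 393 CPM with sg2, with a difference of 0.39 (adjusted p = 0.0388, edgeR). MTUS1, a microtubule-associated protein, was 52.7, 48.5 and 54.6 CPM in the controls, 42.8, 42.4 and 41.2 CPM with sg4 and 57.2, 55.1 and 52.1 CPM with sg2, so it was lower with sg4 alone, with a difference of −0.38 (adjusted p = 0.0388, edgeR), although in sg4 against control it lost its call without control 1 or 3 or sg4 library 2 or 3 (adjusted p from 0.0521 to 0.0821, edgeR). DPP7, a lysosomal dipeptidase, was 122, 122 and 113 CPM in the controls, 80.8, 98.7 and 104 CPM with sg4 and 73.3, 65.9 and 67.8 CPM with sg2. It was lower than in the controls with either guide, and less so with sg4 (difference 0.45, adjusted p = 0.0150, edgeR). Both guides share the same controls, so their changes against control are not independent. For JMJD6 the log2 fold change in the fit of 9 libraries was −1.33 with sg2, for DGAT1 −0.58, for INHBA 1.06, for GAA −0.77, for CDH16 −0.72, for INSIG1 0.29 and for HSPA8 0.31, each with the sign it had with sg4.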

How the data were processed

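Transcript quantities of 6 RNA libraries, 3 with guide sg4 and 3 with the control guide, were used, and the 3 libraries of guide sg2 served as a check. The authors deposited 1 Salmon table per library, whose columns, per the file headers, hold each RefSeq transcript's estimated count, effective length and TPM. The deposited estimated counts held no decimals; what rounded them is not given in the sources used here. Deposited TPM values relate counts to effective length within a library. Tools named in the submitters' processing notes include STAR 2.5.2b, cutadapt 1.12, DESeq2 and Salmon, with the builds GRCh37 and hg19; their roles are not stated. Strand setting and transcript annotation are not given in the sources used here.

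Counts were summed per gene. Of 60422 transcripts 58031 (96.0%) matched the RefSeq gene table of GRCh38.p14, used for names only, and unmatched ones held 1.33% to 1.65% of a library's counts. edgeR 4.0.16 (R 4.3.3) fitted the 6 libraries with TMM factors after filterByExpr, and the quasi-likelihood test was 2-sided with Benjamini-Hochberg adjusted p under 0.05 as a call. CPM are counts over TMM-scaled library sizes. The length correction took each library's lowess trend of log2 level with effective length as an offset. The setting with sg4 library 1 against controls 1 and 2 used the spread of the sg2 libraries too. Further alternatives were DESeq2 1.42.0, limma 3.58.1 (voom), RLE factors, other filters, length offsets in the manner of tximport, all 9 libraries in 1 fit, a replicate block and leaving out each library. The fit was tested on simulated data with known changes (13245 genes tested). It recovered 40% of 1.25-fold, 78% of 1.5-fold, 88% of 2-fold and 96% of 3-fold changes. Of its calls 6.79% were false, above the 5% aimed at. The simulated counts varied independently between genes and carried no trend with length. The share of false calls therefore does not cover that trend. No pair of libraries agreed within sampling noise, with chi-square per degree of freedom from 3.55 to 8.04. The ChIP-seq peak lists were not used.

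The comparison, the gene lists and the rule for named genes were chosen with earlier results of these data known, so nothing in the lists is independent support. The rule named JMJD6 and DGAT1, the 15 largest increases and decreases among called genes with a mean of at least 4 CPM and no overlap of the groups, up to 5 called members per list by size of change with its most abundant member, and up to 6 genes in each direction that also differed between the guides. METTL23, SCAP, EPAS1, the COL1A2, DCN, COL3A1, PDGFRB, RGS5 and FAP counts and the ribosomal RNA genes lie outside the rule. They were named after their values were seen. Some genes under the rule are not reported here. Gene lists were described by counts and medians, without a test. Promoter sequences are RefSeq's, with GRCh38.p14 coordinates.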

Additional observations from a re-analysis of the deposited data

Results flagged for a closer look

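Set against each other in the fit of all 9 RNA libraries, the guides sg4 and sg2 differed in 8 genes, each with a log2 difference of sg4 minus sg2. FXYD2, a small membrane protein that tunes the Na,K-ATPase, was 35.6, 33.6 and 31.3 CPM in the controls, 29.04, 34.6 and 36.4 CPM with sg4 and 21.8, 22.3 and 22.9 CPM with sg2 (difference 0.58, adjusted p = 0.0150, edgeR), so it was lower with sg2 and near the controls with sg4. SERPINA1, a protease inhibitor, was 111, 112 and 106 CPM in the controls, 102, 107 and 123 CPM with sg4 and 78.99, 80.5 and 94.3 CPM with sg2 (difference 0.39, adjusted p = 0.0388, edgeR). SDC1, a heparan sulfate proteoglycan, was 261, 278 and 264 CPM in the controls, 276, 280.5 and 276 CPM with sg4 and 231, 228 and 225 CPM with sg2 (difference 0.28, adjusted p = 0.0349, edgeR). DLC1, a GTPase-activating protein, was 63.97, 62.3 and 67.5 CPM in the controls, 72.4, 72.3 and 66.4 CPM with sg4 and 88.04, 86.1 and 93.05 CPM with sg2 (difference −0.34, adjusted p = 0.0388, edgeR). None of these 4 was called in sg4 against control. For C3, SOD2, DPP7 and MTUS1, which were called there, the differences between the guides were 0.44, 0.39, 0.45 and −0.38.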

How the results depend on the processing

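The number of calls, 1083 with 627 higher and 456 lower, was between 1038 and 1141 with DESeq2, RLE factors, voom, a minimum of 1 CPM, tximport-style offsets, the length correction or all 9 libraries, and 1401 with no filter on low counts. It was 358 (184 higher, 174 lower) for sg4 library 1 against controls 1 and 2, and between 484 and 1028 (275 to 639 higher, 202 to 389 lower) with a library left out. With the replicate block it was 693 (398 higher, 295 lower). Nothing in the labels says that equal replicate numbers pair the samples. The deviations of same-numbered libraries correlated at −0.11, −0.05 and −0.15. These deviations include the length trend, which ran in opposite directions in control 3 and sg4 library 3. The correlations therefore cannot decide whether samples shared a culture or day. The difference of 0.1773 between the shortest and longest decile was −0.004161 after the length correction, by its construction, and −0.02307 for sg4 library 1 against controls 1 and 2. There RPS2 (−0.004791) and NDUFA1 (−0.03805) had the opposite sign. Of 170 named genes with a call 47 kept it in every setting. In this design the 6 libraries limit what can be called among genes of low level.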
